A study of Equus caballus with 34 samples.

Results

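The genes described here are 5 chemokines (CXCL6, CXCL10, CXCL12, CCL2 and CCL5) and 4 adhesion molecules of the vessel wall (SELP, SELE, VCAM1 and ICAM1), 9 of the 12188 genes named on an equine single-colour Agilent array. They were found by gene name or by the protein name in the probe description, and all 9 were on the array, with 1 to 14 probes each. The study profiled the dominant follicle of the mare's ovary (Equus caballus). Granulosa cells (GC), which line the antrum inside the basement membrane, and theca wall (TW), the vascularised layer around them, were each sampled at 3 stages, named EarlyDom (ED, early dominance), LateDom (LD, late dominance) and PreOv (PO, shortly before ovulation) in the labels. Of the 34 arrays, 9 belong to TW LD and 5 to every other group. The labels give no strain, age, treatment or follicle size, and do not tie GC to TW samples of 1 follicle. The design text calls the samples biological replicates.

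Chemokines are small secreted proteins that draw leukocytes along a gradient through G protein-coupled receptors. CXC chemokines with an ELR motif, such as CXCL6, act mainly on neutrophils, CXCL10 acts on activated T and NK cells through CXCR3, and CXCL12 acts through CXCR4. CCL2 recruits monocytes through CCR2, and CCL5 is made by T and NK cells among others and acts through CCR1 among other receptors. P-selectin (SELP) and E-selectin (SELE) on activated endothelium slow leukocytes into rolling, and VCAM1 and ICAM1 bind leukocyte integrins for firm adhesion. Ovulation has long been described as resembling an inflammatory response, in which leukocytes enter the theca before the follicle ruptures.

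The array reads each gene with 60-base probes, and 6 of them, second readings of genes whose results follow, are shown because they tell which probes are separate measurements. Each crosses a gap in the genome, so it matches spliced RNA. Capitals mark the longest run shared by the 2 probes of a pair. The first pair is the CCL2 and the CCL5 probe, which share 15 bases although the 2 genes went opposite ways in granulosa cells. The CCL2 probe lies at chr11:37348878-37349314 on the minus strand and the CCL5 probe at chr11:36087534-36091723 on the plus strand, as the files give them, with the genome build not given in the sources used here. From ED to PO in GC the CCL2 probe rose by 4.67 and the CCL5 probe gave -3.24 (differences of group means).
CCL2: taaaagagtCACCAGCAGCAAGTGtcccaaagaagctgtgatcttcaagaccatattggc
CCL5: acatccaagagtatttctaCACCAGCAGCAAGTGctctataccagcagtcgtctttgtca
The CXCL10 pair (minus strand, chr3:39251580-39252100 and chr3:39251600-39252120) shares 40 bases, and the SELE pair (minus strand, chr5:6160355-6160517 and chr5:6160357-6160519) shares 58.
CXCL10, first probe: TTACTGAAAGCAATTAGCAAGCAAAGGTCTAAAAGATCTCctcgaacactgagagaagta
CXCL10, second probe: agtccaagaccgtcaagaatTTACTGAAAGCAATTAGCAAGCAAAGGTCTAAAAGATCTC
SELE, first probe: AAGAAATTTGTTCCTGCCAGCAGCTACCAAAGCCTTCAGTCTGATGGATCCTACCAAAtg
SELE, second probe: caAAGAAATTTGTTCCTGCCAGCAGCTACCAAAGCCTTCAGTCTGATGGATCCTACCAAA
From LD to PO in TW, these probes gave -1.08 and -1.27 for CXCL10, and from ED to PO 1.92 and 2.35 for SELE. Overlapping probes of 1 gene share their target and are not independent. Each gene is therefore represented below by its probe with the highest mean, which is none of the 6 above, and the other probes are given by their range. CXCL6, listed under its older name GCP2, SELP, VCAM1 and ICAM1 have 1 probe each.

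Levels are log2 of the processed signal relative to each array's 75th percentile, so 0 is a bright probe, and levels of different genes are not compared because each probe has its own response. Between 64.3% and 82.5% of probes were well above background on an array. On slide 7, whose arrays are TW ED 4, TW PO 4 and the LD pair TW LD 6 and TW LD 7, repeated probes varied most (coefficient of variation up to 22.36%, against a median of 4.6% over all arrays). The labelled layers carried their markers. The summed signal of 8 granulosa markers was 91.38 to 260.4 times the 75th percentile in GC groups and 9.043 to 69.01 times in TW groups, and that of 10 stromal and theca markers was 7.098 to 63.94 in GC and 125.4 to 207.6 in TW. The endothelial genes EMCN and TEK were not well above background on any GC array and were on every TW array, while PECAM1 and VWF were detected on most GC arrays. PTPRC, FOXL2 and AMH, which would also mark leukocytes or granulosa cells, were not used here.

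All 9 genes were higher in the theca wall than in granulosa cells at each stage. At ED, 20.5% of the 27987 features tested were called higher in TW, at LD 20.0% and at PO 30.9%, against 9 of 9 members at each stage (limma, adjusted p under 0.05 over all features). The median member difference, GC minus TW, was -5.13 at ED, -5.37 at LD and -5.93 at PO on the log2 scale, where the median over all features was -0.07, -0.10 and -0.35. A probe was tested when well above background on at least 5 arrays of the fit. CXCL6, SELP and SELE, above it on at most 1 of 5 arrays of any GC group, met this through their TW arrays. Their calls as higher in TW, and the counts and medians that include them, are therefore partly set by that filter. The ED median is the value of SELP itself. The other members were also each called at every stage. Their differences ran from -6.64 (CCL2) to -1.78 (CCL5) at ED and from -6.69 (CXCL10) to -2.05 (CCL5) at LD. At PO they ran from -7.74 (CXCL10) to -4.43 (CCL2). In such bulk RNA, fewer cells of a type and less RNA per cell cannot be told apart.

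Among the chemokines, CXCL10 was 214-fold lower in GC at PO (-7.74 ± 1.08 SE, adjusted p = 8.98e-07), and the highest of the GC PO arrays read -3.39 against a lowest TW PO array of 1.64. CXCL12, a chemokine of stromal cells, was 64.9-fold lower in GC at ED, with all 5 GC arrays above background. At PO 1 of 5 GC arrays was, and the measured means differed 132-fold (adjusted p = 1.71e-08). CCL2 was 99.6-fold lower in GC at ED, where 3 of 5 GC arrays were above background, and 21.5-fold lower at PO, where all 5 were. CCL5 was 3.44-fold lower in GC at ED (adjusted p = 0.0093), 4.14-fold at LD and 25.9-fold at PO. CXCL6 was not well above background on any GC ED or GC LD array. A bound compares the TW mean with the dimmest signal still well above background, and gave at least 1.90-fold at ED and at least 1.56-fold at LD. Only 4 of 5 TW arrays at ED and 5 of 9 at LD were above background, so these bounds are themselves uncertain. At PO 1 of 5 GC arrays was above background, and the measured means differed 25.6-fold.

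The adhesion molecules followed the same order of layers. VCAM1, bound by the integrin of ITGA4 and ITGB1, differed 56.8-fold at ED, 85.8-fold at LD and 71.5-fold at PO. ICAM1, bound by the integrin of ITGAL and ITGB2, differed 31.3-fold, 41.4-fold and 60.8-fold, with no overlap between layers and with 2, 3 and 3 of 5 GC arrays above background. SELP cleared the background in GC on 1 of 5 arrays at each stage, and its measured means differed 149-fold at PO, against a GC group mostly below background. No SELE probe was above background on any GC LD array, so TW was at least 3.27-fold higher at LD. At ED 1 of its 5 probes, not the one that stands for the gene, was above background on 1 of 5 GC arrays. The probe that stands for the gene was above it on 0 of 5 GC and 3 of 5 TW arrays, with a bound of at least 2-fold.

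Only slides 2 and 8 held both layers, each with 1 TW LD array. Their GC ED and GC LD arrays also carried the highest stromal and theca marker sums in GC, given below. The part of that signal in the differences within these slides was not tested. With slide as a fixed block, 4 of the 9 members passed at ED, 7 at LD and 7 at PO. CCL5 then lost its difference at ED (-0.18, adjusted p = 0.923) and at LD (-0.69, adjusted p = 0.573), and within the 2 slides its LD difference was -0.11 and 0.39. The other 8 genes were lower in GC at LD on both slides, with differences of -4.04 and -6.12 for VCAM1 and of -2.88 and -4.52 for CXCL10. At ED the block also ended the calls of CXCL10 (-4.15, adjusted p = 0.101), CXCL6 (-0.95, adjusted p = 0.694), SELP (-3.46, adjusted p = 0.084) and SELE (-1.11, adjusted p = 0.43). At LD it ended that of CXCL6 (-1.42, adjusted p = 0.433), and at PO those of CCL2 (-4.30, adjusted p = 0.0949) and CXCL6 (-3.02, adjusted p = 0.119). With normexp background correction, CXCL6 and SELE turned at ED to 0.29 and 0.36 higher in GC, without passing the test. CXCL6 at ED also lost its call with quantile normalization (-1.92, adjusted p = 0.069) and in the deposited table (-0.49, adjusted p = 0.257). Over 45 settings, the SELE difference shrank as far as -0.52 at LD and -0.60 at PO, with 1 call lost at each. That of CXCL6 at LD shrank as far as -0.36, with 3 calls lost, and that of SELP at ED as far as -0.55, with 2 lost. The lower bounds given above for CXCL6 and SELE were computed under the main processing alone. Relative to all features, the layers also depend on scaling: at PO 35.7% of calls were higher in GC, against 71.7% with median centring, and at ED 39.5% against 71.0%, while all 9 members stayed lower in GC under both.

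**Figure D1:**
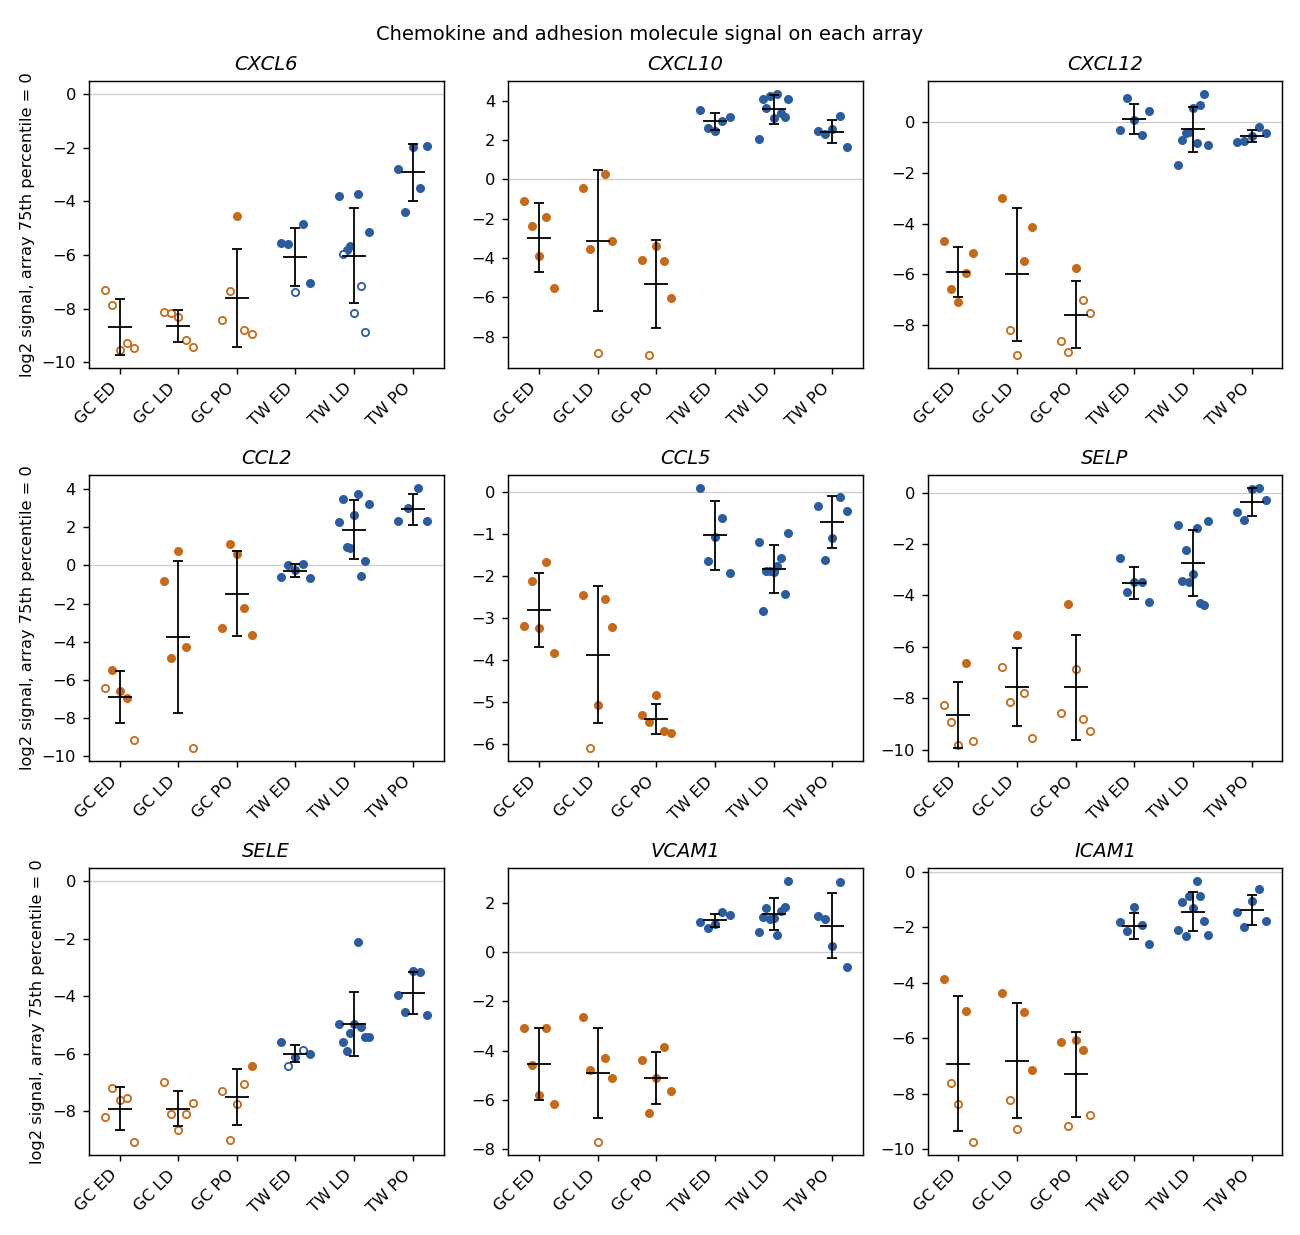
Level of each gene on each of the 34 arrays (y axis, log2 signal with the array's 75th percentile at 0) by group (x axis). Filled points are well above background, open points are not, and bars give mean ± SD. CXCL6, SELP and SELE rise toward TW PO from near background in GC, CCL2 rises in both layers, and CCL5 falls in GC to between -5.75 and -4.83 at PO.

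In the theca wall, the preovulatory stage brought more CXCL6, CCL2, SELP and SELE, while CXCL12, VCAM1 and ICAM1 did not pass the test. Against ED, 4 of 9 members were called, all higher, where 23.5% of 27131 features were called. Against LD, 4 of 9 were called, 3 higher and 1 lower, where 13.1% of 27134 were called. No member was called between LD and ED, where 2 of 27175 features were (0.00736%), and 3773 features had an unadjusted p under 0.05. The median member change from ED to PO was 0.57, against 0.11 over all features.

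CXCL6, a neutrophil chemokine, rose 8.89-fold from ED to PO. Its TW PO arrays read -2.81, -4.39, -1.97, -3.51 and -1.93, and its TW ED arrays read -5.55, -5.58, -7.37, -4.83 and -7.04. All 5 PO arrays lay above every ED array, and 4 of 5 lay above every one of the 9 LD arrays, which ran from -8.86 over a median of -5.79 to -3.71. The change was 3.15 ± 0.86 SE against ED (adjusted p = 0.0139) and 3.11 ± 0.76 SE against LD (adjusted p = 0.0163), with almost none between ED and LD (0.04). Only 5 of 9 TW LD arrays were well above background for this probe. The call ended with normexp correction (1.22, adjusted p = 0.0957, against ED), and the LD call also with slide as a fixed block (adjusted p = 0.0544) and without TW PO 5 (adjusted p = 0.0586).

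CCL2, the monocyte chemokine, rose 9.32-fold from ED to PO (3.22 ± 0.75 SE, adjusted p = 0.00621). The ED arrays read -0.61, 0.02, -0.24, 0.06 and -0.66, and the 4 PO arrays with a value read 2.32, 3.00, 4.08 and 2.35, so the groups did not overlap. The spot on TW PO 2 was flagged as an outlier and left out, and keeping such spots, a choice made after the data were seen, gave 2.90 (adjusted p = 0.00634). LD arrays lay between, from -0.58 over 2.30 to 3.74, and spread more widely (SD 1.55) than ED (SD 0.34). The step from ED to LD was 2.16 (adjusted p = 0.176), with 8 of 9 LD arrays above every ED array, and the step from LD to PO was 1.06 (adjusted p = 0.296). The ED to PO call was lost when all 34 arrays shared 1 estimate of the spread (adjusted p = 0.092).

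SELP, which endothelial cells store ready-made and also transcribe, rose 8.98-fold from ED to PO. The PO arrays read -0.76, -1.07, 0.14, 0.19 and -0.30 and the ED arrays -2.56, -3.88, -3.48, -3.46 and -4.25. The LD arrays ran from -4.37 over -3.16 to -1.10. Each of the 5 PO arrays was above every ED and every LD array. The change was 3.17 ± 0.59 SE against ED (adjusted p = 0.00173) and 2.39 ± 0.52 SE against LD (adjusted p = 0.0114), and both passed in all 31 settings tried (adjusted p 0.000952 to 0.00799 and 0.00375 to 0.0481). Within the 5 slides that held all TW stages, PO exceeded ED by 1.80 to 3.96.

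SELE, the selectin that endothelium makes after activation by cytokines, rose 4.32-fold from ED to PO. Its PO arrays read -3.95, -4.55, -3.11, -3.16 and -4.65, all above the ED arrays at -5.58, -6.42, -6.10, -5.88 and -6.01, of which 3 were well above background. The change was 2.11 ± 0.53 SE (adjusted p = 0.0086). It lost the call with normexp correction (0.71, adjusted p = 0.321) and in the deposited value table (0.86, adjusted p = 0.0513). The LD arrays ran from -5.90 over -5.29 to -2.10, where the highest, TW LD 6, exceeded every PO array. Against LD the change was 1.08 ± 0.46 SE (adjusted p = 0.122), and it passed without TW LD 6 (1.44, adjusted p = 0.00218). The 5 SELE probes overlap, and their ED to PO differences ran from 1.92 to 2.57.

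CCL5 and CXCL10 differed between LD and PO but not detectably between ED and PO. CCL5, a chemokine of T and NK cells, read -0.33, -1.61, -1.11, -0.11 and -0.44 at PO, and LD ran from -2.85 over -1.88 to -0.98. The groups overlapped, with 3 of 5 PO arrays above every LD array (1.11 ± 0.35 SE, 2.16-fold, adjusted p = 0.0425). The ED arrays, at 0.11, -1.65, -1.06, -0.62 and -1.94, covered most of the PO range (0.31 ± 0.40 SE, adjusted p = 0.594). The LD to PO call was lost in 17 of 31 settings (adjusted p 0.0195 to 0.154 over all), among them slide as a fixed block (0.87, adjusted p = 0.0686), median centring (0.89, adjusted p = 0.0627) and leaving out TW PO 5 (1.04, adjusted p = 0.114).

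CXCL10, the interferon-induced chemokine, fell 2.19-fold from LD to PO (-1.13 ± 0.33 SE, adjusted p = 0.0337). The PO arrays read 2.45, 2.28, 2.55, 3.22 and 1.64, and LD ran from 2.07 over 3.61 to 4.33, so 1 of 5 PO arrays lay below every LD array. The ED arrays, at 3.52, 2.61, 2.46, 2.99 and 3.19, lay within the LD range, and PO against ED was -0.52 ± 0.38 SE (adjusted p = 0.327). All 5 CXCL10 probes were lower at PO than at LD, by -1.81 to -0.88. The call was lost in 9 of 31 settings (adjusted p 0.00546 to 0.499), with slide as a fixed block (adjusted p = 0.103) and with all arrays in 1 fit (adjusted p = 0.499) among them.

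CXCL12, VCAM1 and ICAM1 passed in no stage comparison of the theca wall. CXCL12, which holds CXCR4-bearing cells in tissues, read -0.78, -0.73, -0.53, -0.20 and -0.44 at PO and -0.32, 0.95, 0.07, -0.49 and 0.45 at ED (-0.67 ± 0.43 SE, adjusted p = 0.26). VCAM1 read 1.47, 1.32, 0.26, 2.85 and -0.61 at PO, a spread (SD 1.31) that enclosed the whole ED group at 0.98 to 1.62 (-0.23 ± 0.48 SE, adjusted p = 0.76). ICAM1 read -1.43, -1.98, -1.06, -0.61 and -1.78 at PO and -1.82, -2.11, -1.28, -1.90 and -2.59 at ED (0.57 ± 0.38 SE, adjusted p = 0.278). ICAM1 was higher at PO than at ED on each of the 5 slides, by 0.13 to 1.30. The standard errors of these 3 changes were 0.38 to 0.48, and a change must exceed its standard error several-fold to pass. The -0.67 of CXCL12 did not, so moderate changes of these genes are not excluded with this number of arrays.

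**Figure D2:**
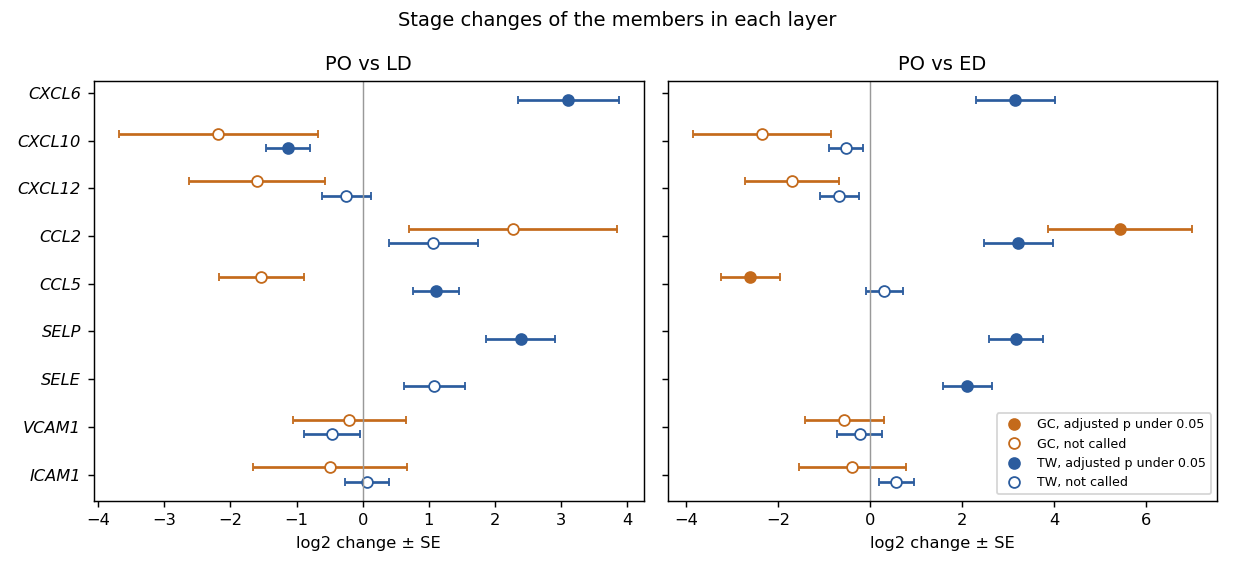
Change of each gene (rows) from LD to PO (left) and from ED to PO (right) in granulosa cells and theca wall, on the log2 scale, with bars of 1 SE. Filled points passed at adjusted p under 0.05. Granulosa points are missing for CXCL6, SELP and SELE, which did not pass the filter on dim probes there. From ED to PO, CCL2 lies right of 0 in both layers, and CCL5 lies left of 0 in granulosa cells at -2.60.

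In granulosa cells, CCL2 rose and CCL5 fell between ED and PO. Only 6 of the 9 members passed the filter on dim probes there, and CXCL6, SELP and SELE, each well above background on at most 1 of 5 arrays of any GC group, were not tested. From ED to PO, 2 of 6 were called, where 43.9% of 24978 features were, so the share of members called was not above that of all features. From LD to PO none of 6 was called, where 17.4% of 24977 features were. From ED to LD none was called, where 1 of 24982 features was (0.00400%) and 3752 had an unadjusted p under 0.05.

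CCL2 in granulosa cells read -6.44, -5.50, -6.56, -6.95 and -9.17 at ED, where 3 of 5 arrays were well above background. At LD it read -0.84, -4.85, 0.73, -4.26 and -9.58, and at PO -3.28, 1.12, 0.62, -2.24 and -3.67. All 5 PO arrays lay above every ED array, while the LD arrays reached from below the lowest ED array to near the highest PO array. The ED to PO change was 5.43 ± 1.57 SE, or 43.2-fold (adjusted p = 0.0119). It was higher at PO on each of 5 slides, by 3.16 to 7.18, and it lost the call with normexp correction (2.12, adjusted p = 0.0611). ED to LD gave 3.16 (adjusted p = 0.356) and LD to PO 2.27 (adjusted p = 0.327).

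CCL5 in granulosa cells read -3.21, -2.12, -3.23, -1.68 and -3.83 at ED, and -5.32, -5.48, -4.83, -5.69 and -5.75 at PO. No arrays of these groups overlapped. The LD arrays, at -2.46, -6.11, -5.08, -2.55 and -3.21, fell partly with ED and partly with PO. The ED to PO change was -2.60 ± 0.64 SE, a 6.06-fold fall (adjusted p = 0.00461), which passed in all 26 settings (adjusted p 0.00016 to 0.0147) and was negative on each of 5 slides, from -4.01 to -1.60. LD to PO gave -1.53 (adjusted p = 0.105), and this passed without GC LD 2 (adjusted p = 0.0203) or without GC LD 3 (adjusted p = 0.0492). The other CCL5 probe gave -3.24 from ED to PO.

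CXCL10, CXCL12, VCAM1 and ICAM1 did not pass in granulosa cells, and their arrays were widely spread. CXCL10 read -1.11, -2.37, -3.88, -1.92 and -5.51 at ED, -0.44, -3.56, -8.82, 0.28 and -3.12 at LD and -4.09, -8.92, -3.39, -4.14 and -6.03 at PO. Its ED to PO change was -2.35 ± 1.51 SE (adjusted p = 0.222). The LD to PO change of -2.18 (adjusted p = 0.326) became -3.60 (adjusted p = 0.0355) without GC LD 3. The ED to PO changes of the others were -1.70 ± 1.03 SE for CXCL12 (adjusted p = 0.196), -0.56 ± 0.86 SE for VCAM1 (adjusted p = 0.622) and -0.39 ± 1.17 SE for ICAM1 (adjusted p = 0.813). The summed signal of the 10 stromal and theca markers also varied among GC arrays. It was 63.94 on GC LD 1, 41.57 on GC LD 4, 41.79 on GC ED 4 and 32.71 on GC ED 1, and 7.098 to 24.77 on the other GC arrays. These 4 arrays also carried the 4 highest CXCL10 and the 4 highest ICAM1 levels in GC, and they lay on slides 2 and 8, which held a TW array each. The part of these markers in the CXCL10 and ICAM1 levels was not tested.

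The ED to PO change was compared between layers by an interaction term in the fit of all arrays. Of the 9 members only CCL5 passed, where 28.5% of 27940 features did. Its change in GC minus that in TW was -2.91 ± 0.75 SE (7.52-fold, adjusted p = 0.00484), past the threshold in all 45 settings (adjusted p 0.00146 to 0.0174). CCL2 gave 2.21 ± 1.79 SE (adjusted p = 0.373), and turned to -1.03 with normexp correction, so its larger fold in GC was not shown to differ from that in TW. SELE gave -1.71 ± 0.73 SE (adjusted p = 0.0772) and passed without TW LD 6 (adjusted p = 0.0203), without GC PO 5 (adjusted p = 0.048), without GC ED 5 (adjusted p = 0.0426) and with the mean of its probes (-2.19, adjusted p = 0.0301). SELP gave -2.09 ± 1.12 SE (adjusted p = 0.165) and passed with normexp correction (adjusted p = 0.00167), in the deposited table (adjusted p = 0.00449) and without GC PO 2 (adjusted p = 0.0289). CXCL6 gave -2.08 ± 1.18 SE (adjusted p = 0.19) and passed in the deposited table (-1.26, adjusted p = 0.0476). In the GC arrays the selectins and CXCL6 were mostly below background, so their GC changes carry little information.

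Several members had more than 1 probe, and for CXCL12 the probes did not read alike. Of its 14 probes, 5 lie at chr1:67044916-67044979 and gave GC minus TW differences of -7.72 to -5.47 over probes and stages. The other 9, at chr1:67047644-67047709, had group means from -7.94 to -5.35 in both layers, and GC minus TW differences from -1.78 to 0.70. Those 9 rose by 0.37 to 1.21 from ED to PO in TW, where the first 5 gave -0.67 to -0.50. With the mean of all 14 probes, the TW change from ED to PO became 0.29 (adjusted p = 0.559). The 6 CCL2 probes read alike, with ED to PO differences of 4.67 to 5.57 in GC and 2.34 to 3.22 in TW. The files also hold a locus, LOC100071714, described as C-C motif chemokine 2, whose 2 probes lie near CCL2 at chr11:37331506-37331566 and share at most 6 bases in a row with any CCL2 probe. They rose by 4.96 and 5.01 from ED to PO in TW, and in GC they were above background on 0 of 5 arrays at ED, 2 of 5 at LD and 4 of 5 at PO. As this locus is not named CCL2, it was not counted as a member.

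**Figure D3:**
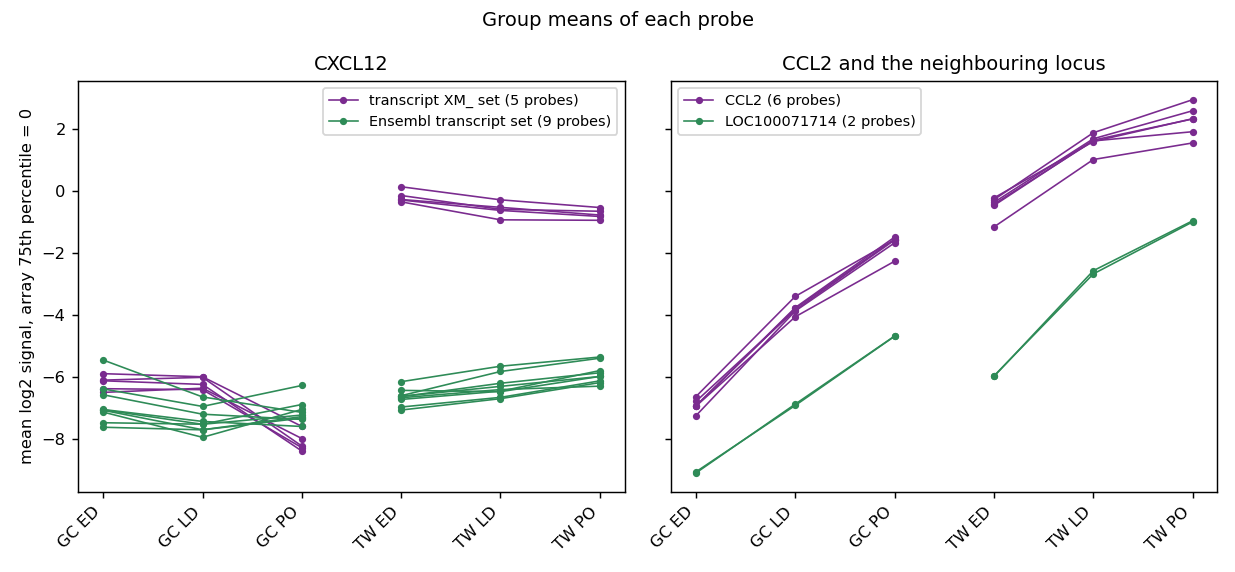
Mean level per group of each probe (y axis, log2 signal with the array's 75th percentile at 0) for CXCL12 (left) and for CCL2 with the neighbouring locus LOC100071714 (right), by group (x axis). The 5 CXCL12 probes of the RefSeq model transcript (XM_) separate the layers, and the 9 probes of the Ensembl transcript stay between -7.94 and -5.35. The 6 CCL2 probes run nearly parallel.

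In the theca wall, CCR1, CCR2, CXCR2 and ACKR1 rose from ED to PO, while CXCR3 and CXCR4 did not pass. CCR2, the CCL2 receptor of monocytes, rose 2.36 ± 0.62 SE from ED to PO (5.15-fold, adjusted p = 0.0108), with 3 of 5 PO arrays above every ED array and 3 of 5 ED arrays above background. CCR1, which binds CCL5, rose 2.74 ± 0.46 SE (6.70-fold by the measured means, adjusted p = 0.00102), with 2 of 5 ED arrays above background, while CCL5 itself gave 0.31. CXCR2, the neutrophil receptor of CXCL6, rose 1.44 ± 0.36 SE (2.70-fold, adjusted p = 0.0089). ACKR1, a decoy receptor of venular endothelium and red cells that binds many of these chemokines, rose 5.08 ± 0.93 SE (33.8-fold, adjusted p = 0.00151). CXCR3, the CXCL10 receptor, gave 0.60 ± 0.36 SE (adjusted p = 0.232). In granulosa cells, CXCR4, the CXCL12 receptor, rose 4.65 ± 1.05 SE (25.1-fold, adjusted p = 0.00275), while in TW it gave 1.75 ± 0.68 SE against ED (adjusted p = 0.0692) and rose 2.17 ± 0.62 SE against LD (adjusted p = 0.0313).

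Among the leukocyte partners of the adhesion molecules, ITGAM and ITGB2, the chains of the ICAM1-binding integrin Mac-1, rose in TW by 2.14 ± 0.40 SE (adjusted p = 0.00158) and 1.499 ± 0.38 SE (adjusted p = 0.00989) from ED to PO. ITGAL was well above background on 2 of 5 TW PO arrays and no TW ED array, and was not tested. ITGA4 and ITGB1, the chains of the VCAM1-binding integrin VLA-4, gave -0.09 (adjusted p = 0.886) and 0.54 (adjusted p = 0.0753) in TW. ITGB1, which many cell types express, rose 1.52 ± 0.29 SE in GC (adjusted p = 0.000893). SELPLG, the leukocyte ligand of P-selectin, gave 0.66 ± 0.50 SE in TW (adjusted p = 0.349).

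Of the 27131 features tested in the theca wall from ED to PO, 23.5% were called, 3944 higher and 2430 lower, and the counts of other pathway genes are read against that. Of 22 other chemokine ligands tested, 10 rose and none fell (median 0.95, where all features had 0.11). CXCL8, a neutrophil chemokine, rose 12.7-fold (adjusted p = 0.00158), CCL26 10.0-fold, and CCL20 at least 3.00-fold, since no ED array was above background. Of 18 chemokine receptors, 11 rose and none fell. Of 15 inducers and targets of NF-kB, 12 rose and none fell, with BIRC3 at 8.56-fold, IL1A at 7.35-fold (1 of 5 ED arrays above background) and IL6 at 7.16-fold. Of 25 interferon response genes, 7 rose and none fell, a share near that of all features called, with ISG15 at 13.5-fold, and of 14 junction and adhesion genes of endothelium 8 rose. The scaling mattered for some counts, as median centring gave 10 ligands higher and 2 lower, and 8 receptors higher and 1 lower. With normexp correction 6 ligands, 2 receptors and 7 NF-kB genes rose. From LD to PO in TW, 5 ligands, 9 receptors and 11 NF-kB genes rose and none fell.

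In granulosa cells, 43.9% of all features were called from ED to PO, 5324 higher and 5644 lower, and several of the same lists had calls both ways. Of 18 other ligands tested, 4 rose and 1 fell, a smaller share than over all features. CXCL1 rose 28.4-fold (adjusted p = 0.000602), CXCL14 rose 26.5-fold (adjusted p = 0.000567), and CCL28 fell 45.5-fold (adjusted p = 0.000252). Of 10 receptors 2 rose and 1 fell, also a smaller share, of 12 NF-kB genes 6 rose and 2 fell, and of 22 interferon response genes 7 rose and 5 fell, among them IRF1 with -2.34 ± 0.52 SE (adjusted p = 0.00254). CD44, a receptor for hyaluronan that also serves leukocyte rolling, rose 71.6-fold (adjusted p = 0.000802).

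Many markers of leukocytes were higher at PO than at ED in the theca wall. In TW, where 23.5% of all features were called, 9 of 11 general leukocyte markers and 10 of 12 myeloid markers rose from ED to PO and none fell, CD14 by 11.8-fold (adjusted p = 0.00272). The summed signal of the 12 myeloid markers, in multiples of the array's 75th percentile, was 4.264 to 11.63 at ED, 7.47 to 28.5 at LD and 16.25 to 55.73 at PO. That of the 11 leukocyte markers was 5.372 to 14.71 at ED, 5.848 to 13.11 at LD and 11.73 to 29.21 at PO. Of 7 neutrophil markers 3 rose, with S100A12 at 106-fold (adjusted p = 0.00531) and S100A9 at 39.0-fold (adjusted p = 0.00811), above background on 3 and 2 of 5 ED arrays, and the summed signal went from 0.55 to 0.8964 at ED to 1.922 to 10.47 at PO. Of 15 endothelial markers 6 rose, CDH5 by 2.97-fold (adjusted p = 0.00981), with sums of 5.502 to 15.47 at ED and 12.07 to 17.26 at PO. With median centring 2 of the 15 rose. Of 15 lymphocyte markers 2 rose, CD2 and GZMA, a smaller share than over all features. Of 5 red blood cell genes tested 2 rose, with sums of 0.185 to 0.6317 at ED and 0.5419 to 2.251 at PO. The part of these cells in the changes of CXCL6, CCL2, SELP and SELE was not tested.

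In GC, 5 of 12 myeloid markers rose from ED to PO and none fell, a share near the 43.9% of all features called. Their sums were 0.292 to 0.6809 at ED, 0.6325 to 5.878 at LD and 2.094 to 7.024 at PO, so the myeloid sums, like CCL2, were higher on every PO array than on any ED array. Of 11 general leukocyte markers 4 rose, and of 5 neutrophil markers tested 2 rose. None of either list fell, and neither share was above that of all features. The median change of the neutrophil markers was 0.09 on the log2 scale. Among them, S100A12 rose 665-fold by the measured means (adjusted p = 0.000228), with 2 of 5 ED arrays above background. The neutrophil sums were 0.1899 to 0.9337 at ED and 2.175 to 10.88 at PO. Of 13 lymphocyte markers tested, 6 fell and 1 rose, beside the fall of CCL5. The T cell receptor chains CD3E and CD3D fell by 3.03 (adjusted p = 0.00593) and 2.78 (adjusted p = 0.000606) on the log2 scale, while GZMB rose by 4.04 (adjusted p = 0.00881). The lymphocyte sums overlapped, at 3.477 to 7.724 for ED and 2.049 to 11.46 for PO, where GC PO 2 was the highest. The B cell gene CD79A was above background on no array of the study, and MPO, a neutrophil granule gene, on no GC array. The sums of 10 smooth muscle and pericyte markers went from 0.3226 to 0.5437 at ED to 1.332 to 3.147 at PO, and 3 of 8 tested rose. Those of 8 granulosa markers went from 154.7 to 260.4 at ED to 91.38 to 143.1 at PO, and 5 of 8 fell. The part of all these cells in the CCL2 and CCL5 changes was not tested.

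**Figure D4:**
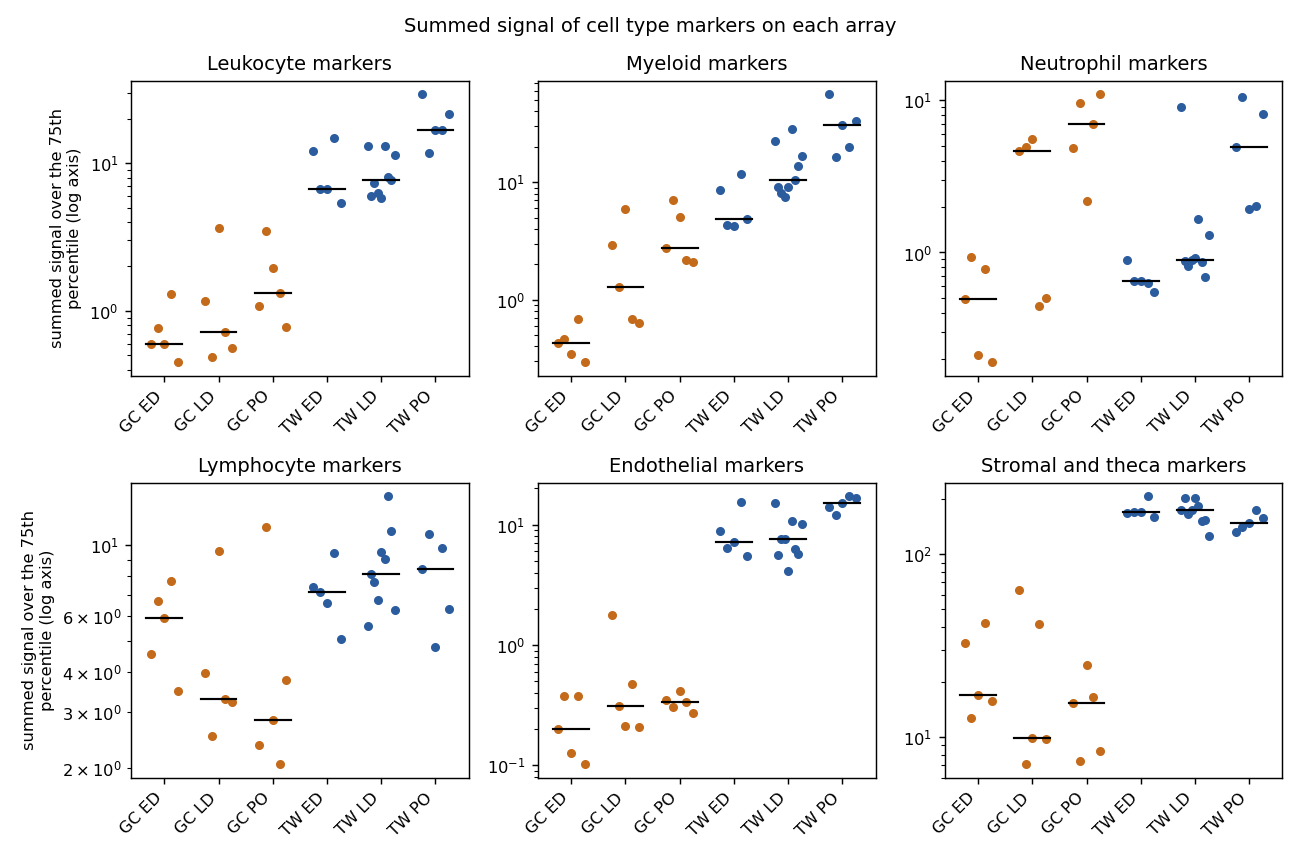
Summed signal of 6 lists of cell type markers on each array (y axes, multiples of the array's 75th percentile, log axes) by group (x axes), with lines at group medians. Group medians of the myeloid and leukocyte sums are higher at PO than at ED in both layers. All 5 TW PO myeloid sums (16.25 to 55.73) lie above the TW ED sums (4.264 to 11.63). The leukocyte sums of ED and PO overlap in both layers, in GC with 0.4479 to 1.3 and 0.7731 to 3.485. GC arrays carry 0.1024 to 1.775 of endothelial signal against 4.145 to 17.26 in TW.

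The genes most like each member were those of highest Pearson correlation over the 34 arrays among 10565 named genes, given as a description. Because the layers differ so much, these values mostly follow the layers, and a second value is taken after subtracting group means. CCL5 was most like KLRK1 (r = 0.982, and 0.934 within groups), a receptor of NK and cytotoxic T cells, CD3E (0.977 and 0.895) and TRAT1 (0.965 and 0.836). CCL2 was most like CCL8, another monocyte chemokine (0.973 and 0.929), followed by CP (0.947 and 0.785) and SLC38A11 (0.923 and 0.785). CXCL10 was most like LDB2 (0.967 and 0.894), TCF21 and CACNG3, and CXCL12 most like LRRC17 (0.969 and 0.739), ENPP6 and COLEC11. PTGDR (0.894 and 0.702) and CA2 (0.883 and 0.665) were among the 3 genes most like CXCL6.

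Among the adhesion molecules, ICAM1 was most like SPARCL1 (0.976 and 0.887), SULF2 and ICAM2, and VCAM1 most like CACNG3 (0.975 and 0.735), FRZB and SNCAIP. SELP was most like GPSM3 (0.959 and 0.745), CASP1 and C1QTNF5. SELE was most like GJA4, a connexin of arterial endothelium (0.944 and 0.731), FAM110D and PI15. Between members, deviations from the group means ran together within GC for VCAM1 and ICAM1 (0.895), CXCL10 and VCAM1 (0.882) and CXCL10 and ICAM1 (0.858). The first pair did not do so within TW (-0.07), and the others gave 0.46 and 0.41 there. ICAM1 was well above background on 2, 3 and 3 of 5 GC arrays at ED, LD and PO. Its highest GC arrays were GC ED 1, GC LD 1, GC ED 4 and GC LD 4, which also carried the highest stromal and theca marker sums in GC. The part of those markers in the GC correlations was not tested. CCL2 and SELP gave 0.769 within GC, where SELP was mostly below background, and 0.619 within TW. Within TW, CXCL6 ran with SELP (0.735) and against CXCL12 (-0.756). Arrays of 1 slide share their hybridisation, which these values do not remove.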

How the data were processed

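RNA of 15 granulosa and 19 theca wall samples was amplified from oligo(dT)-T7 primers and labelled with Cy3, per the labels' protocols. The scanner files hold spot intensity values that the authors' Agilent Feature Extraction 9.5.3.1 produced, per the file headers (9.1 per the submitters' processing notes). The deposited value table holds log2 values without a stated scale, and each column matched the quantile-normalized log2 mean signal (lowest r 0.999995), with a median of 7.29. It served as an alternative.

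Control spots and spots flagged as outliers were dropped, saturated ones stayed in, and repeated spots of a probe were averaged. Values are log2 of the processed signal minus the array's 75th percentile, a step computed here. Of different probes of a gene, the one with the highest mean over 34 arrays stands for it. Probes had to be well above background on at least 5 arrays of a fit. limma 3.58.1 (R 4.3.3, lmFit and eBayes) fitted the 15 GC, the 19 TW or all 34 arrays, with Benjamini-Hochberg adjustment over all features and a threshold of 0.05. Scripts were tested on simulated data.

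The design text names 5 samples a group, and all 9 TW LD arrays were used because the labels do not say which 5 were meant. It also places each group on every slide, whereas by the slide barcodes in the scanner file names slides 2 and 8 alone hold both layers. No tissue source other than the labels ties samples to mares, so p-values measure the spread between these samples. All 9 members are named. Of each other list, the text names called genes of large change (up to 3 per comparison) and the members' receptors and ligands, and for likeness the 3 genes of highest r. A receptor and a gene of like pattern that this rule covers are not reported here. The members and lists were chosen with earlier results of these data known. Alternatives changed the scaling, background correction, value source, dim-probe filter, probe rule, slide block, spread estimate and arrays left out. The number of arrays limits the precision. Genome coordinates are those of the files.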

Additional observations from a re-analysis of the deposited data

Results flagged for a closer look

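SELE on TW LD 6 stood apart from the other TW LD arrays. It read -2.10 (-2.103), where the next of the 9 arrays read -4.95, a gap of 0.75 of the group's range against a critical value of 0.493. TW LD 6 lies on slide 7, where repeated probes varied most. Of 54 groups of member values tested in this way 1 stood out, and chance alone gives about 1 in 20.

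Of 27940 features, 28.5% passed the interaction term (limma, adjusted over all features), so passing it was not unusual. Among the members and their receptors and ligands 5 genes passed, given as the ED to PO change in GC minus that in TW. The first is the member CCL5, with -2.91 ± 0.75 SE (adjusted p = 0.00484). The decoy receptor ACKR1 gave -3.99 ± 1.41 SE (adjusted p = 0.0334), and the CXCL6 receptor CXCR2 gave -1.63 ± 0.54 SE (adjusted p = 0.0243). Both VCAM1-binding integrin chains went the other way, ITGA4 with 2.56 ± 0.86 SE (adjusted p = 0.0253) and ITGB1 with 0.97 ± 0.35 SE (adjusted p = 0.0373). ACKR1 in GC was well above background on 1 of 5 ED and 2 of 5 PO arrays, and ITGA4 in GC on 0 of 5 ED and 3 of 5 PO arrays. Both entered this fit through their TW arrays, and their GC changes rest mostly on signal near background.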

How the results depend on the processing

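Of the values recomputed under the alternatives, 2800 kept their direction and side of the threshold, 53 lost a call, 14 gained one and 58 changed sign. Members called: with normexp correction 1 in GC from ED to PO, 2 in TW from ED to PO, 2 in TW from LD to PO, 5 between layers at ED and 2 for the interaction. With slide as a fixed block it was 4 between layers at ED and 1 in TW from LD to PO. With all arrays in 1 fit it was 1 in GC and 2 in TW, both from LD to PO. For the interaction it was 3 in the deposited table and 2 with the mean of all probes. Leaving out 1 array gave 0 to 2 in GC from LD to PO, 1 to 5 in TW from LD to PO and 1 to 2 for the interaction, 2 in GC and 4 in TW from ED to PO, 9 between layers and 0 from ED to LD.

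All features called, GC, ED to LD (limma): 1, but 0 with normexp and in the deposited table, 2 with the slide block, 1499 with all arrays in 1 fit, and 1 to 1256 without 1 array (1256 without GC LD 5). GC, LD to PO: 4343, but 2846 with normexp, 7625 with all arrays and 2079 to 7235 without 1 array. GC, ED to PO: 10968, and 9389 to 11314 without 1 array. TW, ED to LD: 2, but 11 with median centring, 13 with quantile normalization, 70 in the deposited table, 0 without the filter, 0 with the slide as a fixed block, 12 as a random one, 0 with all arrays, 10 with outlier spots kept (chosen after seeing the data) and 0 to 6 without 1 array. TW, ED to PO: 6374, but 2618 with normexp, 4142 with all arrays and 4542 to 7198 without 1 array. TW, LD to PO: 3541, but 6067 with median centring, 845 with normexp, 1834 with the slide block, 1794 with all arrays, 5333 without TW LD 6 and 873 without TW PO 5. Layers at ED: 9463, but 5265 with normexp, 4029 with the slide block and 8283 to 9917 without 1 array. At LD: 8474, but 12807 with median centring, 4685, 3899 and 7528 to 9270. At PO: 13445, but 7828, 4470 and 12035 to 13750. Interaction: 7960, but 4871 with normexp and 6877 to 8496 without 1 array. The share of calls that were higher moved with median centring: 61.9% to 33.4% in TW from ED to PO, 65.1% to 28.7% from LD to PO, 38.3% to 49.2% in GC from LD to PO, 34.0% to 71.1% in GC against TW at LD, and 41.7% to 60.5% for the interaction.

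Signs that changed, all of values not called except CXCL6 (0.29) and SELE (0.36) between layers at ED with normexp: with normexp also CCL2 (-1.03) and CXCL12 (0.145) for the interaction, CXCL10 (0.11) and ICAM1 (-0.33) in GC from ED to LD, and ICAM1 (-0.025) in TW from LD to PO. In the deposited table CXCL10 (0.23), CXCL12 (0.15) and ICAM1 (-0.036) in GC from ED to LD, CXCL12 (0.14) for the interaction and ICAM1 (-0.14) in TW from LD to PO. With the mean of all probes CXCL10 (0.042) in GC from ED to LD and CXCL12 in TW (0.083 from ED to LD, 0.29 from ED to PO, 0.21 from LD to PO). With quantile normalization CXCL6 (-0.019) in TW from ED to LD, ICAM1 (-0.22) in GC from ED to LD and ICAM1 (-0.07) in TW from LD to PO, which gave -0.16 with median centring. VCAM1 gave 0.034 for the interaction without slide 7. Without 1 array, values crossed 0 in GC from ED to LD for CXCL10 (-1.03 to 1.25), CXCL12 (-0.85 to 0.69), ICAM1 (-0.59 to 0.87) and VCAM1 (-0.93 to 0.34). They did so in GC for ICAM1 from ED to PO (-1.09 to 0.38) and from LD to PO (-1.11 to 0.11), and for VCAM1 from LD to PO (-0.90 to 0.37). In TW it was CXCL6 from ED to LD (-0.28 to 0.40), ICAM1 from LD to PO (-0.13 to 0.21) and VCAM1 from ED to PO (-0.68 to 0.19), and for the interaction VCAM1 (-0.75 to 0.12). The cause was not tested. The consensus correlation within slides was 0.048 in GC, 0.125 in TW and 0.099 over all. No paired analysis was possible because replicate numbers follow the accession order and tie no samples, so slide served as the block.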
